A study of Mus musculus with 30 samples.

Results

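Leukaemic B cells of aged mice with an Ikzf3 mutation were compared with splenic B cells of wild-type mice of the same age. The comparison used 8 of the 30 samples of the series, chosen by their labels: 5 libraries of CLL cells and 3 libraries of wild-type B cells, all measured by RNA-seq. CLL stands for chronic lymphocytic leukaemia. Per the labels all mice were C57BL/6, aged 15 to 18 months. CLL libraries 1, 2, 4 and 5 came from mice with the genotype Ikzf3 fl/+ and CLL library 6 from a mouse with Ikzf3 fl/fl, so the homozygous genotype is represented by 1 library. The mutation was restricted to B cells, and the driver of the recombination is not given in the sources used here. CLL cells were obtained by flow sorting on B220 and CD5, whereas wild-type splenic B cells were selected on magnetic beads (purity at least 85%), so the method of isolation and the disease cannot be told apart. Levels in 4 libraries of the non-leukaemic B cells of mutant mice (non-CLL B cells, numbers 2, 4, 5 and 6) are given for reference only. Of these, numbers 2, 4 and 5 were labelled heterozygous and number 6 homozygous. The numbers are taken as separate mice within a group, but the labels do not state this, so p-values measure the spread between these libraries. Of 22781 genes in the table, 21202 were tested and 7023 had a mean of at least 20 TPM (a transcript level corrected for gene length and library size) in either group. The results below are about these 7023 genes, because the low background differed between libraries.

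Aiolos, the product of Ikzf3, belongs to the Ikaros family of zinc finger factors. It binds target genes in B cells and regulates their response to antigen. Human CLL is a leukaemia of mature CD5-positive B cells. In mice, CD5-positive B cells without disease are mainly B-1 cells, which make natural antibodies and depend on IL-5 and on tonic signals from the B cell receptor, whereas most splenic B cells are follicular cells without CD5.

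The gene with the largest increase in CLL cells was 1810046K07Rik, the mouse counterpart of human POU2AF2, a coactivator that works with octamer-binding POU factors in tuft cells, the chemosensory cells of epithelia. Its promoter is shown for that reason, with that of Trim40, another gene called higher whose promoter held octamers. Tgtp2, an interferon-induced GTPase called lower, is shown for an interferon element. Each sequence holds the 250 bases before the start of the gene from RefSeq (GRCm38.p6, the assembly of mm10), read 5′ to 3′ on the minus strand, and capitals mark the octamer ATGCAAAT or the interferon element (GAAA, any 2 bases, GAAA) on either strand. The windows are chr9:51328919-51329168 for 1810046K07Rik, chr17:36890126-36890375 for Trim40 and chr11:49064213-49064462 for Tgtp2. The mature microRNA of Mir703, another gene called higher, is at chr5:98475616-98475636 on the minus strand, with its seed (bases 2 to 8) in capitals.
1810046K07Rik: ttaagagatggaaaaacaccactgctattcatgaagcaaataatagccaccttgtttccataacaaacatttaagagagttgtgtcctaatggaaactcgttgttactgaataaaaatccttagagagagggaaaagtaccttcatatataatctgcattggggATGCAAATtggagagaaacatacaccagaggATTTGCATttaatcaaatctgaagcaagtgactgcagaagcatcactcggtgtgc
Trim40: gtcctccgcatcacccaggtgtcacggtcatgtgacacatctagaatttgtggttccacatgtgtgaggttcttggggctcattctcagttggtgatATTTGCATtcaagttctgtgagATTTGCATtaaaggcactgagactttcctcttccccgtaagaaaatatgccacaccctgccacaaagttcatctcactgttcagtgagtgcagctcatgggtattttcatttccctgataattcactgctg
Tgtp2: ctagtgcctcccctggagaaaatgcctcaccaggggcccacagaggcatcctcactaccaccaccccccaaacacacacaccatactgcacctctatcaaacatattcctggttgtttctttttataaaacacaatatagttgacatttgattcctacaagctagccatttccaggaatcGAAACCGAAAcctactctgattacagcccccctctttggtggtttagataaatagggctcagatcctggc
Mir703: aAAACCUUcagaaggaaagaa
The octamers began at -86 and -55 from the start of 1810046K07Rik and at -153 and -131 from that of Trim40, and the interferon element at -70 from that of Tgtp2. A second RefSeq promoter of 1810046K07Rik held no octamer. For this search each gene with an entry gave its first listed promoter, from 250 bases before to 50 bases after the start. The octamer was present in 474 of 27025 promoters (1.75%), and 34 (0.126%) held at least 2. Promoters were found for 5109 of the 7023 reported genes, of which 1.43% held an octamer and 0.176% at least 2. They were found for 117 of the 193 genes called higher, of which 3 held an octamer (1810046K07Rik, Pim2 and Trim40, each with at least 2), and for 90 of the 124 genes called lower, of which 2 held one. The interferon element was present in 3.49% of all promoters, 3.21% of those of reported genes, 2.56% of those of genes called higher and 5.56% (5 of 90) of those of genes called lower. In the same order the STAT element TTCNNNGAA was present in 8.47%, 7.07%, 6.84% and 10.0%. The shares were 25.5%, 21.8%, 28.2% and 21.1% for the Ikaros core TGGGAA, and 20.5%, 25.7%, 31.6% and 26.7% for the NF-kB element (GGGA, any 4 bases, CC). For the ETS element CCGGAAGT they were 4.0%, 10.5%, 5.98% and 6.67%, so called genes lay under the share of all reported genes. Motifs were searched on both strands and may overlap one another. These matches describe the letters of the windows only.

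Some libraries stood apart. Within the reported genes, Pearson's r of log2 values was between 0.813 and 0.887 for pairs of CLL libraries and 0.940 for wild-type libraries 1 and 3. Wild-type library 2 reached only 0.779 to 0.812 with the other wild-type libraries, a range that meets the 0.704 to 0.809 between CLL and wild-type libraries. Wild-type library 2 was the only one of the 8 with the Y-linked Ddx3y above 0.135 TPM (17.4 TPM, beside 38.1 TPM of Xist), and it had 126 TPM of the plasmacytoid dendritic cell gene Siglech (at most 18.1 TPM in the other 7). In CLL library 4, Xist was at 4.1 TPM, against 38.1 to 70.4 TPM in the other 7 libraries. The median over 1106 olfactory receptor genes, taken as background, was 9.66 TPM in CLL library 6, 1.08 to 2.71 TPM in the other CLL libraries, 0 to 0.745 TPM in wild-type and 7.16 to 9.24 TPM in non-CLL libraries. CLL library 2 had 3290 TPM of Ngp and 656 TPM of Lyz2, genes of neutrophils and myeloid cells. Summed levels of marker lists in CLL and wild-type libraries ranged from 336 to 1440 and 273 to 940.3 TPM for T cells, 26.2 to 111 and 8.28 to 47.5 TPM for NK cells, 1025 to 8962 and 837 to 1991 TPM for myeloid cells, 533 to 1563 and 574 to 1533 TPM for dendritic cells, 17.3 to 95.7 and 7.76 to 109 TPM for erythroid cells and platelets, and 78.6 to 247 and 45.9 to 227 TPM for stromal cells. Of the defining T cell genes, Cd3d was at 1.23 to 6.02 TPM in CLL and 0 to 5.99 TPM in wild-type libraries, Cd3e at 1.13 to 10.5 and 0 to 0.281 TPM, Cd3g at 3.39 to 362 and 0 to 596 TPM, and Cd8a at 0.586 to 5.82 and 1.96 to 6.06 TPM. The highest Cd3g value was that of wild-type library 2, and the highest Cd3e value that of CLL library 6, where it lay near the background. Of all markers of these 6 lists at 20 TPM or more, the test called Irf8, which B cells also express, and no other. Of the 14 reported myeloid markers 12 had a positive log2 change, with a median of 1.88. The CLL group alone brought 9 of the 14 over 20 TPM, and 1 myeloid marker under it was called lower. Without wild-type library 2, 4 myeloid markers were called higher, and 2 dendritic cell markers higher and 2 lower. The part of these differences in the results below was not tested.

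In CLL cells 193 of the 7023 genes rose (2.75%) and 124 fell (1.77%), by limma on log2(TPM + 1) with a Benjamini-Hochberg adjusted p under 0.05. The median log2 change of the genes that rose was 1.76 and that of the genes that fell was -1.5, beside -0.04 over all 7023. At least 4-fold changes were found for 66 genes that rose and 26 that fell. The libraries of the groups did not overlap for 171 and 108 of them, and for 1006 of all 7023 genes (14.3%). Over all 21202 tested genes 2.94% rose and 0.604% fell (3.54% together), the groups did not overlap for 31.5%, and of the called genes under 20 TPM 430 rose and 4 fell. Counts of called members of lists are to be read beside the 2.75% and 1.77% of all 7023 genes. These shares are those of the fit to all 8 libraries. With wild-type library 2 left out, 539 of the reported genes rose and 524 fell. Counts of members without that library are to be read beside these larger numbers. A gene that passed the minimum through 1 group only had to differ between the groups. Counts and medians over the reported members of a list thus describe those members and are no support for a direction. Just under that minimum lay Rasgrf2 (means of 19.9 TPM in CLL and 3.11 TPM in wild-type cells), Crmp1 (19.8 and 0.778 TPM) and Rps23 (19.7 and 3.84 TPM), and just over it Klf4 (20.6 and 3.94 TPM), Lrrc25 (20.9 and 2.39 TPM) and Gm5512 (21.1 and 5.51 TPM).

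**Figure D1:**
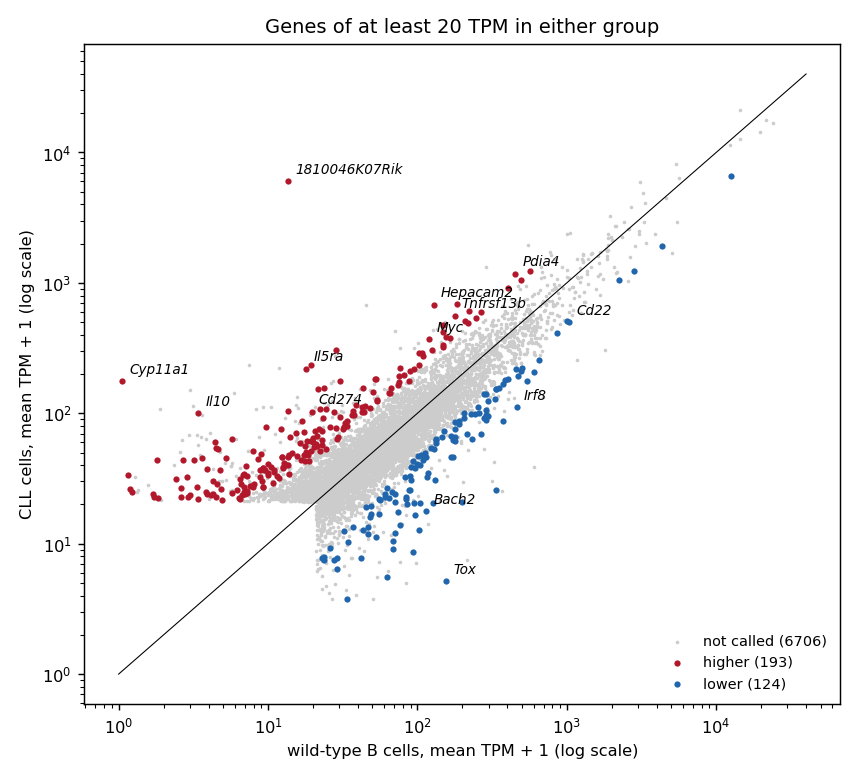
Mean TPM + 1 in CLL cells (n = 5, vertical) against wild-type B cells (n = 3, horizontal), both on log axes, for the 7023 genes of at least 20 TPM in either group; red points are the 193 genes called higher, blue points the 124 called lower and the line marks equal levels. 1810046K07Rik lies alone far above the line, and no gene lies as far below it.

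The sort markers and B cell genes came first. In every sentence of values the order is CLL libraries 1, 2, 4, 5 and 6, then wild-type libraries 1, 2 and 3, unless said otherwise. Cd5, the surface receptor used for the sort, was at 36.1, 16.3, 16.8, 17.1 and 23.5 TPM in CLL and 0.377, 0.634 and 1.16 TPM in wild-type libraries. The groups did not overlap, and the log2 change was 3.69 (SE 0.54, adjusted p = 6.53e-06, limma). In non-CLL B cells Cd5 ranged from 5.54 to 11.2 TPM, which meets the background of those libraries. Ptprc, which encodes B220, was at 659, 478, 269, 727 and 395 TPM in CLL and 1058, 830.3 and 1134 TPM in wild-type libraries, and it fell by 1.07 on the log2 scale (SE 0.31, limma adjusted p = 0.0424). The products of Cd5 and Ptprc were both used to sort the CLL cells, so the sort and the disease cannot be told apart in these differences. The call of Ptprc was lost with wild-type library 1 (adjusted p = 0.141) or 3 (0.194) left out.

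The B cell genes Pax5 (log2 0.36, adjusted p = 0.497) and Ms4a1 (log2 0.89, adjusted p = 0.271), which encode a B lineage factor and CD20, were not called by limma. Ms4a1 was at 4645, 3813, 3244, 4038 and 3445 TPM in CLL libraries and at 3610, 617 and 3848 TPM in wild-type libraries, so wild-type library 2 alone was low. Ikzf3 itself was at 342, 892, 353, 798 and 1056 TPM in CLL and 407, 932 and 463 TPM in wild-type libraries. These values overlapped, with a log2 change of 0.14 (SE 0.39, limma adjusted p = 0.804), and they do not check the genotype, since a point mutation leaves the transcript in place. The change of Ikzf3 turned to -0.05 without CLL library 6 and to -0.086 without wild-type library 1. Of the 14 reported members of the list of Ikaros factors and the NuRD complex, the chromatin remodeller they recruit, limma called none, with a median log2 change of -0.18 and 3 members lower at an unadjusted p under 0.05. It called 1 lower without wild-type library 2 or without CLL library 6.

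Genes of tuft cells and other epithelia rose, led by 1810046K07Rik. Of the 10 reported members of that list 7 rose and none fell, with a median log2 change of 3.68, beside 2.75% and 1.77% of all reported genes. Of 26 tested members 16 lay under 20 TPM in both groups and none of these was called, and the median over all 26 was 1.38. The same median for the marker lists of other cell types ran from 0.13 for dendritic cells to 1.48 for stromal cells. The value of 1.38 is thus not particular to this list. Of the 7 that rose, 6 passed the minimum through the CLL group only, and of the 4 members over it in both groups 1 rose (Hepacam2). The list was drawn up with earlier results of these data known, so its direction is not independent evidence. 1810046K07Rik (chromosome 9, 51289686 to 51328924, mm10) was at 4399, 6495, 7421, 4664 and 7074 TPM in CLL and 11.2, 14.9 and 11.8 TPM in wild-type libraries. All 5 CLL libraries lay far above every wild-type library, and the gene ranked 9 to 16 by TPM in CLL libraries and 6775 to 7590 in wild-type libraries. The change was 433-fold (limma log2 8.76, SE 0.30, adjusted p = 1.08e-31). Non-CLL B cells had 103, 414, 211 and 124 TPM in libraries 2, 4, 5 and 6.

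The other called tuft and epithelial genes stood lower, and those at most 1.19 TPM in wild-type libraries varied more between the CLL libraries. Trpm5, the cation channel of taste and tuft cells (chromosome 7, 143071529 to 143094642), was at 21.3, 10.6, 43.6, 5.93 and 81.8 TPM in CLL libraries and at most 0.322 TPM in wild-type libraries (limma log2 4.33, SE 0.63, adjusted p = 3.2e-05). Trim40, a ubiquitin ligase of the gut epithelium, was at 98.4, 37.0, 30.2, 5.91 and 41.1 TPM in CLL and 0, 1.19 and 1.19 TPM in wild-type libraries. Fras1, an extracellular matrix protein of epithelial basement membranes, was at 11.4, 5.82, 27.9, 29.1 and 46.1 TPM in CLL and at most 0.637 TPM in wild-type libraries. The 5 CLL libraries did not rank alike for these genes: CLL 6 was highest for Trpm5 and Fras1, and CLL 1 for Trim40. Krt18, a keratin of simple epithelia, was at 60.5, 35.7, 15.9, 2.9 and 11.9 TPM in CLL and at most 0.505 TPM in wild-type libraries (limma log2 3.94, SE 0.67, adjusted p = 0.000464). Its values in CLL 5 and 6 lay near their backgrounds of 2.55 and 9.66 TPM. Non-CLL libraries had 5.23 to 7.59 TPM of Trpm5, 6.42 to 13.9 TPM of Trim40, 6.92 to 9.96 TPM of Fras1 and 5.46 to 20.3 TPM of Krt18. For each of these genes they reached above the lowest CLL library, and their background was 7.16 to 9.24 TPM. With the background of each library subtracted Krt18 lost its call (adjusted p = 0.156), and with a pseudocount of 10 so did Krt18 (0.218), Trpm5 (0.218) and Trim40 (0.129). Ehf, an ETS factor of epithelia outside the list, was at 23.8, 71.9, 13.7, 29.1 and 75.7 TPM in CLL and 1.4, 0.644 and 4.59 TPM in wild-type libraries. Hepacam2, an adhesion molecule found in tuft cells, was already expressed in wild-type B cells: it was at 563, 770.1, 786, 679.9 and 609.8 TPM in CLL, 106, 116 and 160.2 TPM in wild-type and 107 to 164 TPM in non-CLL libraries. Among the genes named by rule it was one of the most even, with a coefficient of variation of 14.3% over the CLL libraries against 95.2% for Trpm5. It rose 5.35-fold (limma log2 2.42, SE 0.30, adjusted p = 1.17e-07).

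**Figure D2:**
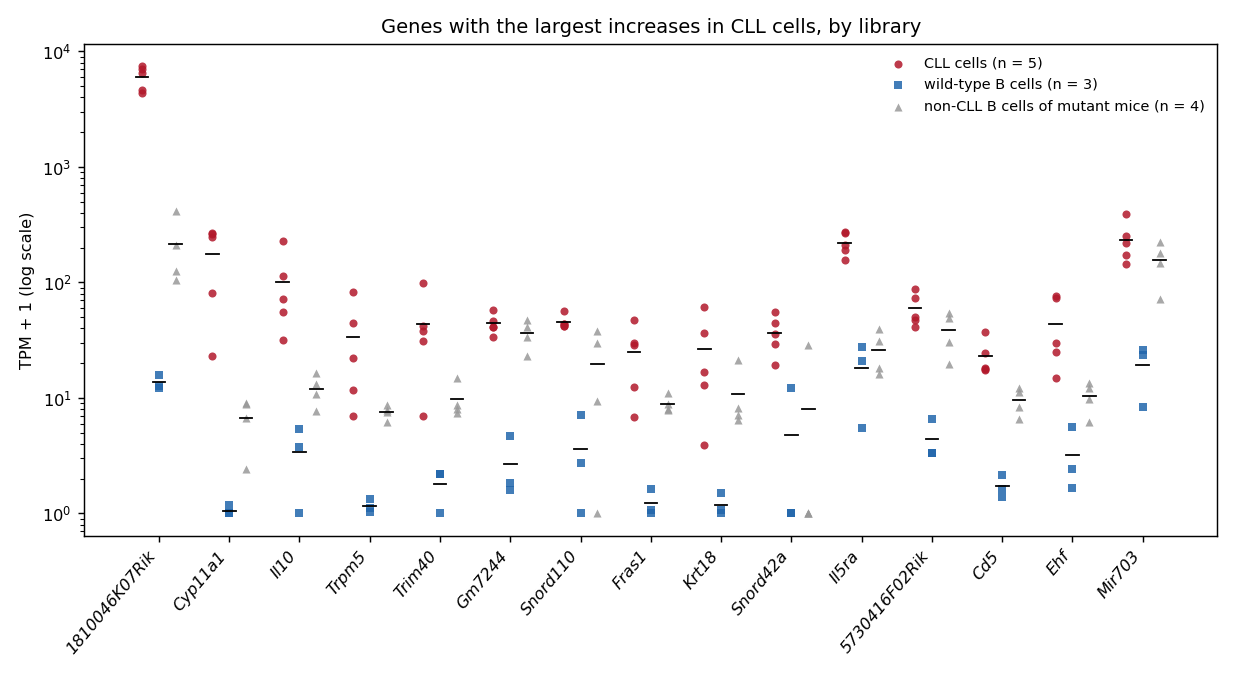
TPM + 1 on a log axis for the 15 genes with the largest increases, by library: red circles are CLL cells (n = 5), blue squares wild-type B cells (n = 3), grey triangles non-CLL B cells of mutant mice (n = 4), and bars are means. No CLL library overlaps a wild-type library for any of the 15 genes, as the rule that chose them requires, while non-CLL libraries lie near CLL libraries for Gm7244, 5730416F02Rik and Mir703 and near wild-type libraries for Il5ra.

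Markers of B-1 cells were the next group. Of 18 reported members 4 rose (Cd5, Cd9, Il5ra and Nid1) and none fell, with a median log2 change of 1.34. Cd5 was a marker of the sort, so its rise is no independent evidence, which leaves 3 of 17. Of the 18 members 7 passed the minimum of 20 TPM through the CLL group only, 3 of the 4 that rose among them. When wild-type library 2 was left out, 12 of the 18 rose, beside 539 of all reported genes in that fit. Il5ra, the alpha chain of the IL-5 receptor (chromosome 6, 106710375 to 106749037), was at 157, 267, 272, 188 and 212 TPM in CLL and 20.0, 4.52 and 26.6 TPM in wild-type libraries. It rose 14.6-fold (limma log2 3.87, SE 0.40, adjusted p = 1.01e-06), and non-CLL B cells had 15.1 to 38.6 TPM, a range that meets that of wild-type cells. Nid1, the basement membrane protein nidogen, was at 130.2, 98.4, 43.1, 84.3 and 161 TPM in CLL and 14.7, 4.07 and 18.8 TPM in wild-type libraries (limma log2 3.04, SE 0.44, adjusted p = 0.000258). Cd9, a tetraspanin of B-1 and marginal zone cells, was at 527, 266, 232, 277 and 236 TPM in CLL and 51.8, 229 and 89.8 TPM in wild-type libraries. Wild-type library 2 came close to the lowest CLL library, and the call (limma log2 1.5, adjusted p = 0.0381) was lost without wild-type library 1 (0.163). A pair of members of the list with large but uncalled differences show the spread. Ctla4, an inhibitory receptor, was at 221, 141, 10.9, 20.0 and 162 TPM in CLL and 0.101, 23.9 and 0.68 TPM in wild-type libraries (limma log2 4.21, adjusted p = 0.0797). Zbtb32, a repressor active in B-1 and memory B cells, was at 808, 458, 327, 22 and 151 TPM in CLL and 8.46, 376 and 42.9 TPM in wild-type libraries (log2 1.97, adjusted p = 0.385). Ctla4 and Zbtb32 were chosen after their values were seen.

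Markers of follicular B cells fell in 2 of 16 cases and rose in none, beside 1.77% and 2.75% of all reported genes. The median log2 change was -0.82, and 9 fell without wild-type library 2, beside 524 of all reported genes in that fit. Bach2, a repressor that holds back plasma cell differentiation, was at 14.7, 14.3, 15.9, 9.51 and 29.2 TPM in CLL and 173, 36 and 133 TPM in wild-type libraries (limma log2 -2.51, SE 0.43, adjusted p = 0.000674). Cd22, an inhibitory coreceptor of the B cell receptor, was at 540.4, 312, 746, 533 and 351 TPM in CLL and 1170, 976 and 973 TPM in wild-type libraries (limma log2 -1.13, adjusted p = 0.0291). Its call was lost without CLL library 2 (0.0621) or wild-type library 1 (0.132) or 3 (0.0764). A pair of defining follicular genes, named after their values were seen, were divided by library. Cr2, the complement receptor CD21, was at 18.3, 37.6, 33.5, 513 and 54.0 TPM in CLL and 1274, 25.4 and 776 TPM in wild-type libraries, and Fcer2a, which encodes CD23, at 6.69, 21.5, 14.9, 74.7 and 28.9 TPM in CLL and 536, 9.33 and 404 TPM in wild-type libraries. Wild-type library 2 thus lay among the CLL libraries for both, and limma called neither (adjusted p = 0.318 for Cr2 and 0.235 for Fcer2a). In bulk libraries fewer cells of a type and less RNA per cell cannot be told apart. Among 14 genes of marginal zone cells and the Notch2 pathway, 1 rose and none fell (median log2 0.49), and 3 rose without wild-type library 2. Plac8 rose by a log2 change of 1.25 (limma adjusted p = 0.0167), but not without wild-type library 1 (0.0809) or 3 (0.201).

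The largest decreases included factors of the T-bet programme, which marks a B cell subset that accumulates with age. Of 13 reported members of that list 5 fell and none rose, with a median log2 change of -1.74, beside -0.54 over all 17 tested members. All 5 passed the minimum of 20 TPM through the wild-type group only, and of the 5 members over it in both groups none was called. Without wild-type library 2, 9 fell and 1 rose. This list too was drawn up with earlier results known. Tox, an HMG-box factor (chromosome 4, 6686353 to 6991557), was at 1.79, 3.82, 0.929, 6.69 and 7.71 TPM in CLL and 24.2, 308 and 132 TPM in wild-type libraries. The highest CLL library lay under the lowest wild-type library, and Tox had the largest decrease of all called genes with no overlap (limma log2 -4.51, SE 0.79, 22.7-fold lower, adjusted p = 0.0174), a call lost with a pseudocount of 10 (0.142). Tbx21, which encodes T-bet, was at 2.95, 3.08, 0, 1.75 and 6.16 TPM in CLL and 17.1, 52.2 and 29.3 TPM in wild-type libraries. Stat4, the signal transducer of IL-12, was at 1.3, 4.25, 1.85, 3.68 and 11.8 TPM in CLL and 89.7, 26.8 and 67.7 TPM in wild-type libraries (limma log2 -3.60, SE 0.53, adjusted p = 1.23e-05). Dpp4, the peptidase CD26, was at 2.35, 15.2, 3.49, 10.2 and 16.3 TPM in CLL and 71.3, 68.6 and 61.9 TPM in wild-type libraries, the smallest spread of wild-type values in this list's called genes. CLL library 6 was the highest CLL library for Tox, Tbx21, Stat4 and Dpp4, and it also had the highest background. Fas, the death receptor, was at 5.8, 8.73, 2.94, 5.86 and 17.5 TPM in CLL and 13.7, 147 and 43.6 TPM in wild-type libraries. Its groups overlapped, and its call (limma log2 -2.52, adjusted p = 0.0479) was lost without CLL library 1 (0.0649) or 5 (0.0716). Non-CLL B cells had 21.3 to 57.2 TPM of Tox, 24.0 to 51.6 TPM of Tbx21 and 17.4 to 56.4 TPM of Stat4, above every CLL library for each gene.

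**Figure D3:**
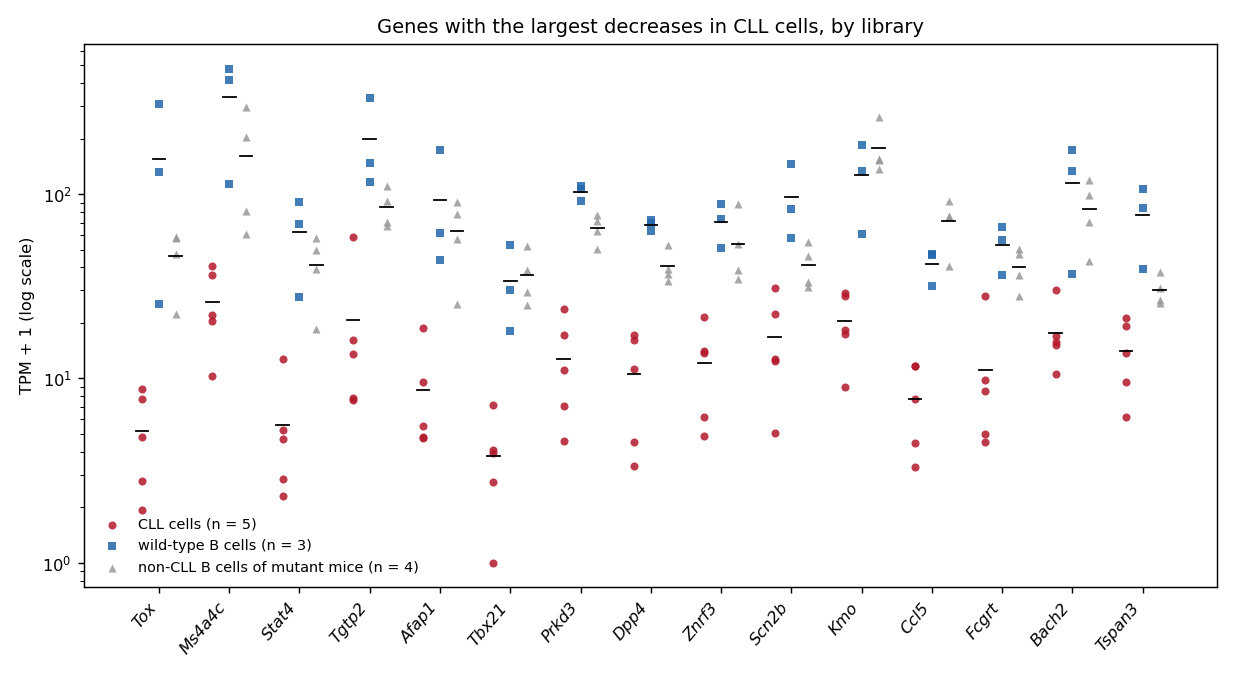
TPM + 1 on a log axis for the 15 genes with the largest decreases, by library: red circles are CLL cells (n = 5), blue squares wild-type B cells (n = 3), grey triangles non-CLL B cells of mutant mice (n = 4), and bars are means. Every CLL library lies under every wild-type library for each gene, as the rule that chose them requires. The non-CLL libraries lie above all CLL libraries for every gene but Fcgrt.

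Other large decreases concerned genes of several functions. Ms4a4c, a four-span membrane protein of lymphocytes, was at 9.3, 39.7, 19.4, 35.3 and 21.0 TPM in CLL and 416, 112 and 478 TPM in wild-type libraries (limma log2 -3.60, adjusted p = 0.00381). Afap1, an adaptor of actin filaments, was at 4.51, 17.8, 3.76, 3.8 and 8.6 TPM in CLL and 43.2, 173 and 60.8 TPM in wild-type libraries. Prkd3, a protein kinase D, was at 3.6, 22.9, 6.11, 10.1 and 16.2 TPM in CLL and 109.6, 90.4 and 106 TPM in wild-type libraries (limma log2 -3.24, SE 0.43, adjusted p = 2.37e-06). Prkd3 and Dpp4 thus had wild-type libraries close to one another, library 2 included, unlike Tox and Ms4a4c. Kmo, the kynurenine monooxygenase of tryptophan breakdown, was at 7.97, 27, 16.4, 17.4 and 28.1 TPM in CLL and 184, 59.5 and 133 TPM in wild-type libraries (limma log2 -2.61, adjusted p = 4.56e-05), and at 136 to 262 TPM in non-CLL B cells. Ccl5, a chemokine that draws T cells, was at 2.29 to 10.7 TPM in CLL, 30.8 to 46.5 TPM in wild-type and 39.5 to 91.2 TPM in non-CLL libraries. Further called decreases were those of Znrf3, which removes Wnt receptors from the membrane (log2 -2.72), the sodium channel subunit Scn2b (log2 -2.66), the neonatal Fc receptor Fcgrt (log2 -2.55) and the tetraspanin Tspan3 (log2 -2.47). Fcgrt lost its call with the background subtracted (adjusted p = 0.0787).

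The median log2 change of interferon response genes was -0.62. Of 24 members 5 fell and none rose, beside 1.77% and 2.75% of all reported genes. The count was 7 without wild-type library 2 and 2 with the background subtracted, and 2 of the 5 passed the minimum through the wild-type group only. Tgtp2 was at 15.2, 12.6, 6.84, 57.6 and 6.64 TPM in CLL and 147, 333 and 115 TPM in wild-type libraries (limma log2 -3.57, SE 0.69, adjusted p = 0.0339). CLL library 5 was the highest CLL library, and all CLL values lay under all wild-type values. Tgtp2 has a near-identical copy, Tgtp1, so its level is uncertain, and it lost its call with the background subtracted (adjusted p = 0.093). Usp18, which removes the ubiquitin-like ISG15 from proteins, fell from 30.4 to 57.6 TPM in wild-type to 5.35 to 16.5 TPM in CLL libraries (limma log2 -1.81, adjusted p = 0.01), and the guanylate-binding protein Gbp4 from 124 to 268 TPM to 42.8 to 99.5 TPM (log2 -1.52, adjusted p = 0.00605, or 0.0571 with the background subtracted). Ifi47, an interferon-induced GTPase named after its values were seen, was at 34.8 to 120 TPM in CLL and 143 to 181 TPM in wild-type libraries (limma log2 -1.45, adjusted p = 0.0106).

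**Figure D4:**
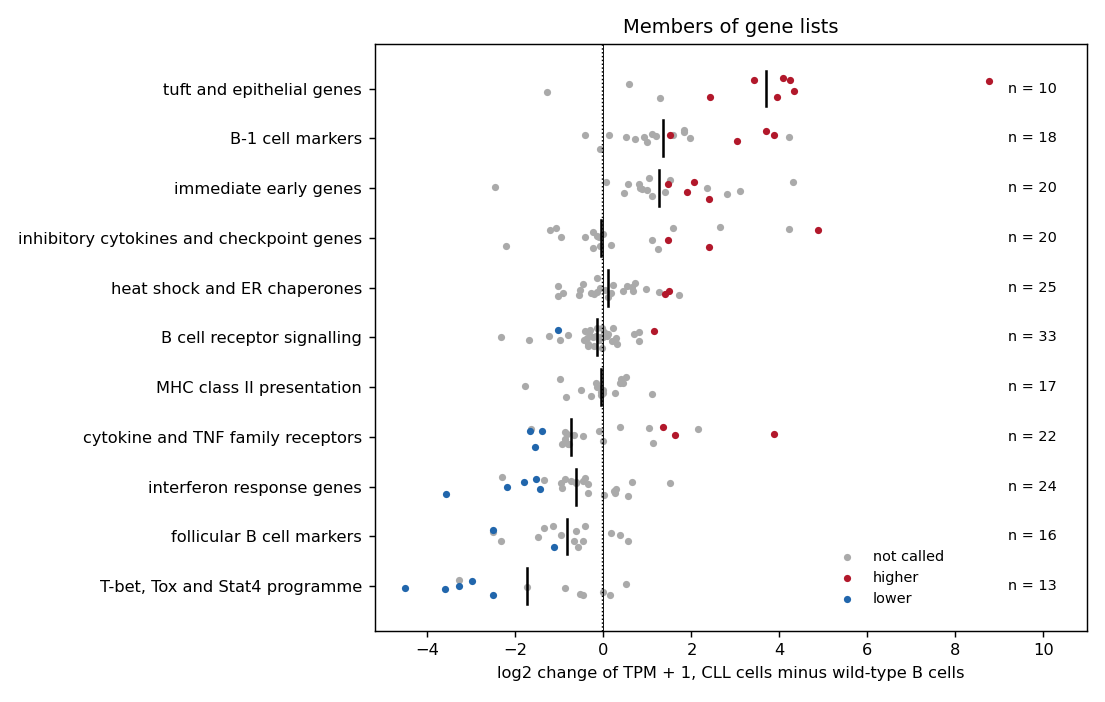
Log2 change of TPM + 1 (CLL cells minus wild-type B cells) of each reported member of 11 gene lists; grey points are not called, red points called higher and blue points called lower, the black bars are list medians, n is the number of members and the dotted line is the median of all reported genes. Members of the tuft list reach 8.76, and called members of the T-bet and interferon lists lie to the left of 0.

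Transcription factors of B cell identity had a median log2 change of -0.05. Of 20 members 3 fell and none rose (8 and 1 without wild-type library 2), beside 1.77% and 2.75% of all reported genes. Besides Bach2 these were Irf8, a factor of B and dendritic cells, at 101, 112, 161, 113 and 61.7 TPM in CLL and 330.2, 765 and 288 TPM in wild-type libraries (limma log2 -1.98, SE 0.34, adjusted p = 0.000187), and Runx3 (limma log2 -1.34, adjusted p = 0.0381). Irf8 was lower in every CLL library, whereas 1 CLL library of Runx3, number 5 at 180.2 TPM, lay inside the wild-type range of 175 to 242 TPM. Irf8 is also on the dendritic cell list, whose gene Siglech was high in wild-type library 2. In wild-type libraries 1 and 3 the level of Irf8 was 330.2 and 288 TPM, and there Siglech was at most 1.89 TPM. The part of dendritic cells in the change of Irf8 was not tested.

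Of 33 reported members of B cell receptor signalling 1 rose and 1 fell (1 and 3 without wild-type library 2), near the 4.51% called over all reported genes, with a median log2 change of -0.14. Nfatc1, a calcineurin-dependent factor, was at 161, 189, 199, 262 and 368 TPM in CLL and 117, 101 and 87.5 TPM in wild-type libraries (limma log2 1.15, adjusted p = 0.0348). Btk, the tyrosine kinase that inhibitors target in human CLL, was at 257, 492, 302, 431 and 568 TPM in CLL and 958, 496 and 1123 TPM in wild-type libraries (limma log2 -1.04, adjusted p = 0.0488), and its groups overlapped. Both calls were lost without CLL library 5 (adjusted p = 0.0564 for Nfatc1 and 0.0563 for Btk), wild-type library 1 (0.0557 and 0.199) or wild-type library 3 (0.179 and 0.23). Of 24 inhibitors of this pathway 2 rose, Siglecg and the sort marker Cd5, and 1 fell (3 and 6 without wild-type library 2), with a median of -0.21. Siglecg, a sialic acid receptor that restrains B-1 cells, was at 248, 346, 271, 341 and 455 TPM in CLL and 232, 67.4 and 143 TPM in wild-type libraries (limma log2 1.30, adjusted p = 0.0205). Without wild-type library 2, the lowest of all 8, Siglecg lost its call (0.057).

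Of 27 NF-kB subunits and targets 1 rose and 3 fell (5 and 4 without wild-type library 2), beside 2.75% and 1.77% of reported genes. Their median log2 change was -0.03. Nfkbid, an atypical inhibitor protein needed for B-1 cells, was at 217, 119.7, 189.7, 209.8 and 233 TPM in CLL and 62.3, 126 and 34.4 TPM in wild-type libraries (limma log2 1.53, adjusted p = 0.00683), and lost its call without wild-type library 3 (0.167). The 3 genes that fell were Cflar, an inhibitor of caspase activation (limma log2 -1.40, adjusted p = 0.0351), Traf1, an adaptor of TNF receptors (log2 -1.26, adjusted p = 0.0481), and the subunit Nfkb2 (log2 -1.16, adjusted p = 0.0499). None was called without wild-type library 3 (adjusted p = 0.0757 for Cflar, 0.0836 for Traf1 and 0.0749 for Nfkb2), and also without wild-type library 1 for Cflar (0.115) and Nfkb2 (0.206) or without wild-type library 2 for Traf1 (0.0852).

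Immediate early genes are those that lymphocytes transcribe soon after activation. Of 20 members 4 rose and none fell, beside 2.75% and 1.77% of all reported genes, with a median log2 change of 1.26. Without wild-type library 2, 10 rose and 1 fell. With the background subtracted all 4 lost their call (adjusted p = 0.0512 for Dusp1, 0.0552 for Egr1, 0.122 for Myc and 0.284 for Klf4), and 3 of the 4 had passed the minimum of 20 TPM through the CLL group only. Dusp1, a phosphatase of MAP kinases, was at 38.5, 46.7, 28.7, 46.4 and 39.5 TPM in CLL and 5.17, 19.4 and 2.52 TPM in wild-type libraries (limma log2 2.41, SE 0.44, adjusted p = 0.000626). Egr1, a zinc finger factor, was at 46.6, 46.8, 112, 67.4 and 87.1 TPM in CLL and 12, 34.9 and 12.2 TPM in wild-type libraries (limma log2 1.91, adjusted p = 0.00167). Wild-type library 2 was the highest wild-type library for both, and non-CLL B cells had 38.1 to 68.0 TPM of Dusp1 and 36.5 to 84.6 TPM of Egr1. Myc was at 770.3, 187, 225, 389 and 266 TPM in CLL, 116, 157 and 84.7 TPM in wild-type and 60.3 to 131 TPM in non-CLL libraries (limma log2 1.46, SE 0.37, adjusted p = 0.0309), and lost its call without wild-type library 3 (0.0662). Klf4 (log2 2.06, adjusted p = 0.0383) lost its call without wild-type library 1 (0.129) or 3 (0.0959). Fosb, named after its values were seen, was at 175, 71.5, 95.3, 50.5 and 62.3 TPM in CLL and 0.671, 35.0 and 0.232 TPM in wild-type libraries and was not called by limma (log2 4.31, adjusted p = 0.0565). CLL library 1 had 1049 TPM of Atf3 and 326 TPM of Nr4a1, genes also named after their values were seen, against at most 22.4 and 41.0 TPM in the other CLL libraries.

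Among 20 inhibitory cytokines and checkpoint genes 3 rose and none fell, beside 2.75% and 1.77% of all reported genes. Each of the 3 had passed the minimum through the CLL group only, and the median log2 change of the 20 genes was -0.05. Il10, the anti-inflammatory cytokine that B-1 and regulatory B cells make, was at 229, 54.7, 30.4, 113 and 70.8 TPM in CLL and 0, 4.4 and 2.79 TPM in wild-type libraries. Il10 rose 29.3-fold (limma log2 4.87, SE 0.70, adjusted p = 0.00567), and non-CLL B cells had 6.69 to 15.5 TPM. Cd274, which encodes the checkpoint ligand PD-L1, was at 197, 58.2, 98.2, 83.3 and 73.4 TPM in CLL and 27.5, 8.38 and 19.9 TPM in wild-type libraries (limma log2 2.4, SE 0.39, adjusted p = 0.000146), with 10.4 to 34.2 TPM in non-CLL B cells. CLL library 1 was the highest for both Il10 and Cd274, and the lowest CLL library still lay above every wild-type library for each. Entpd1, the ectonucleotidase CD39, rose by a log2 change of 1.46 (limma adjusted p = 0.0299), but not without CLL library 5 (0.0707). Of the 20 genes 7 rose and 2 fell without wild-type library 2.

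Receptors of cytokines and of the TNF family had a median log2 change of -0.73. Of 22 members 3 rose and 3 fell (5 and 10 without wild-type library 2), beside 2.75% and 1.77% of all reported genes. Besides Il5ra, Tnfrsf13b rose, which encodes TACI, a receptor of the survival factors BAFF and APRIL: it was at 273, 613, 629, 840.0 and 443 TPM in CLL, 176, 115 and 237 TPM in wild-type and 109 to 229 TPM in non-CLL libraries (limma log2 1.62, SE 0.33, adjusted p = 0.00213). Tgfbr2, a receptor chain of the growth inhibitor TGF-beta, fell from 278, 208 and 285 TPM in wild-type to 35.7, 55.5, 137, 129 and 136 TPM in CLL libraries (limma log2 -1.55, adjusted p = 0.0301). Il21r was at 9.38 to 44.1 TPM in CLL and 47.7 to 87.9 TPM in wild-type libraries (limma log2 -1.68, adjusted p = 0.0111), and lost its call without wild-type library 1 (0.0672). Among 19 JAK, STAT, SOCS and PIM genes 1 rose and 2 fell (2 and 4 without wild-type library 2), with a median of -0.30. The kinase Pim2 was at 40.2, 73.6, 19.9, 44.9 and 122 TPM in CLL and 26.0, 10.3 and 15.3 TPM in wild-type libraries, and its call (limma log2 1.59, adjusted p = 0.0497) was lost without CLL library 5 (0.0514).

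Steroid, sterol and lipid genes had a median log2 change of 0.25. Of 15 members 1 rose and none fell (2 and 1 without wild-type library 2), beside 2.75% and 1.77% of all reported genes. The gene was Cyp11a1, the mitochondrial enzyme that converts cholesterol to pregnenolone (chromosome 9, 57998024 to 58027031), with the largest increase after 1810046K07Rik among called genes whose groups did not overlap. It was at 246, 266, 22.3, 80.1 and 261 TPM in CLL, 0, 0.171 and 0 TPM in wild-type and 1.44 to 8.0 TPM in non-CLL libraries (limma log2 6.91, SE 0.82, 120-fold, adjusted p = 0.00484). CLL libraries 4 and 5 were low among the CLL libraries and still above every other library. As its wild-type values lie near 0, this fold depends on the pseudocount of 1, and with one of 10 the call was lost (log2 3.81, adjusted p = 0.135).

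Adhesion genes had a median log2 change of -0.10. Of 25 members 2 rose and 1 fell (5 and 3 without wild-type library 2), beside 2.75% and 1.77% of all reported genes. Besides Cd9 and Hepacam2 this was the laminin receptor chain Itga6, at 0.981 to 16.4 TPM in CLL and 15.9 to 43.8 TPM in wild-type libraries (limma log2 -2.11, adjusted p = 0.0267), which lost its call without wild-type library 3 (0.203). In Toll-like receptor signalling 1 of 21 rose (2 rose and 2 fell without wild-type library 2, median log2 0.11): Ly86, the partner of the receptor RP105 (limma log2 1.12, adjusted p = 0.0415), which lost its call without wild-type library 1 (0.21) or 3 (0.177). Of 25 heat shock and ER genes 2 rose (5 rose and 2 fell without wild-type library 2), with a median of 0.10. Pdia4, a disulfide isomerase of the ER, was at 1243, 1384, 867, 1400 and 999 TPM in CLL, 512, 336 and 501 TPM in wild-type and 218 to 473 TPM in non-CLL libraries (limma log2 1.39, SE 0.29, adjusted p = 0.00328). Atf4, the factor of the integrated stress response, was at 399, 179, 166, 209 and 149 TPM in CLL and 62.5, 103 and 59.7 TPM in wild-type libraries (limma log2 1.49, adjusted p = 0.00572).

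Lists that describe growth, survival and presentation held shares of called genes that are to be read beside the 4.51% over all reported genes. Of 24 cell cycle genes limma called none (4 were higher at an unadjusted p under 0.05, 4 rose without wild-type library 2, median log2 0.28). Of 9 members of the BCL2 family it called none with or without that library (1 was higher at an unadjusted p under 0.05, median 0.37). Among 17 D cyclins, kinases and inhibitors the inhibitor Cdkn1b (p27) rose (limma log2 1.37, adjusted p = 0.0339), while without wild-type library 2 it was not called (0.0629) and 1 gene fell. Its call was also lost without CLL library 5 (0.051) or wild-type library 3 (0.117). The survival factor Bcl2, named after its values were seen, was at 134, 228, 188, 291 and 270.1 TPM in CLL and 160, 215 and 132 TPM in wild-type libraries (log2 0.37, adjusted p = 0.367). Of 17 genes of MHC class II presentation and 23 of chemokine, egress and G protein signalling limma called none (0 higher and 2 lower, and 1 higher and 2 lower, at an unadjusted p under 0.05), whereas without wild-type library 2 it called 1 higher and 2 lower, and 2 higher and 5 lower. Of 5 plasma and germinal centre genes 1 fell (Fas; 2 without wild-type library 2), and of 11 glycolysis genes 1 fell, the hypoxia factor Hif1a, at 72.3, 89.2, 56.4, 20.3 and 86.0 TPM in CLL and 176, 176 and 181 TPM in wild-type libraries (limma log2 -1.61, adjusted p = 0.0133). Among 25 genes known from human CLL 1 rose (Tnfrsf13b) and none fell (3 and 6 without wild-type library 2), with a median of -0.14.

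Small nucleolar RNA (snoRNA) genes, whose products guide the modification of ribosomal RNA, rose in 21 of 54 cases (38.9%) and fell in none, with a median log2 change of 1.38. This group was formed after the values were seen. The changes of the 21 genes lay between 1.14 and 4.08. Of the 21, 17 had no overlap between groups, beside 171 of all 193 genes that rose. Over all reported genes 2.75% rose, 1.77% fell and 14.3% had no overlap. Of the 54 genes 26 passed the minimum of 20 TPM through the CLL group only, 13 of the 21 among them, and of the 28 over it in both groups 8 rose. Snord110 was at 41.1, 43.0, 55.2, 41.3 and 42.6 TPM in CLL and 0, 1.71 and 6.18 TPM in wild-type libraries (limma log2 4.08, SE 0.48, adjusted p = 5e-08). Snord57, named after its values were seen, was at 139, 105, 197, 168 and 149.7 TPM in CLL, 18.6, 25.6 and 17.4 TPM in wild-type and 95.3 to 202 TPM in non-CLL libraries. For 13 of the 21 genes all non-CLL libraries also lay above all wild-type libraries. Such a count was not taken over all reported genes. The background was 7.16 to 9.24 TPM in non-CLL and 0 to 0.745 TPM in wild-type libraries, and its part in these levels was not tested. Among 8 host genes, whose introns hold snoRNAs, 1 rose (Snhg1, log2 1.21, limma adjusted p = 0.0226) and none fell, with a median of 0.79, and Snhg1 lost its call without wild-type library 1 (0.0609) or 3 (0.196). Such genes are short and lie inside other genes, and neither how reads shared with the host were counted nor how RNA was selected for these libraries is given in the sources used here.

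Of 24 microRNA genes, also grouped after the values were seen, 4 rose (16.7%) and none fell, beside 2.75% and 1.77% of reported genes. All 4 had passed the minimum through the CLL group only. Mir703, whose mature sequence is printed above, was at 389.7, 219, 142, 249.5 and 170.1 TPM in CLL, 25.0, 7.41 and 22.7 TPM in wild-type and 70.2 to 223 TPM in non-CLL libraries (limma log2 3.67, SE 0.37, adjusted p = 1.77e-08). The values are those of the hairpin gene, not of the mature microRNA. Gm7244 was at 32.8, 45.5, 57.0, 40.1 and 39.8 TPM in CLL and 0.814, 3.65 and 0.609 TPM in wild-type libraries, and 5730416F02Rik, a transcribed pseudogene, at 87.0, 40.0, 46.7, 72.5 and 49.2 TPM and 5.52, 2.36 and 2.33 TPM. For these genes too the non-CLL libraries, at 22.3 to 46.2 TPM for Gm7244 and 18.8 to 53.5 TPM for 5730416F02Rik, lay above all wild-type libraries. The background of the non-CLL libraries was 7.16 to 9.24 TPM.

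The 5 CLL libraries were not alike. CLL library 1 was the lowest of the 5 for 62 of the 124 genes that fell and the highest for 56 of the 193 that rose. It was also the lowest for 42 of the 193, beside 33 to 44 for the other CLL libraries. CLL library 6 was the highest for 40 of the 124. Such counts were not taken over all reported genes. Among the named genes the coefficient of variation over the CLL libraries ran from 13.4% for Snord110 to 109% for Tgtp2. With CLL library 4 left out 485 genes rose and 462 fell, and without CLL library 1 these were 453 and 329. Leaving out wild-type library 2 gave 539 and 524, of which 189 and 115 were among the 193 and 124. Without wild-type library 3, 80 genes fell, of which 54 were among the 124. The 15 largest increases and 15 largest decreases kept their call with each of the 8 libraries left out in turn. With the background subtracted 31 of the 66 called genes chosen by the naming rule lost their call, among them, besides those given above, Ptprc, Cd9, Cd22, Plac8, Runx3, Nfatc1, Btk, Siglecg, Nfkbid, Cflar, Traf1, Nfkb2, Entpd1, Il21r, Tnfrsf13b, Tgfbr2, Pim2, Ly86, Itga6, Cdkn1b, Hif1a, Atf4 and Snhg1.

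**Figure D5:**
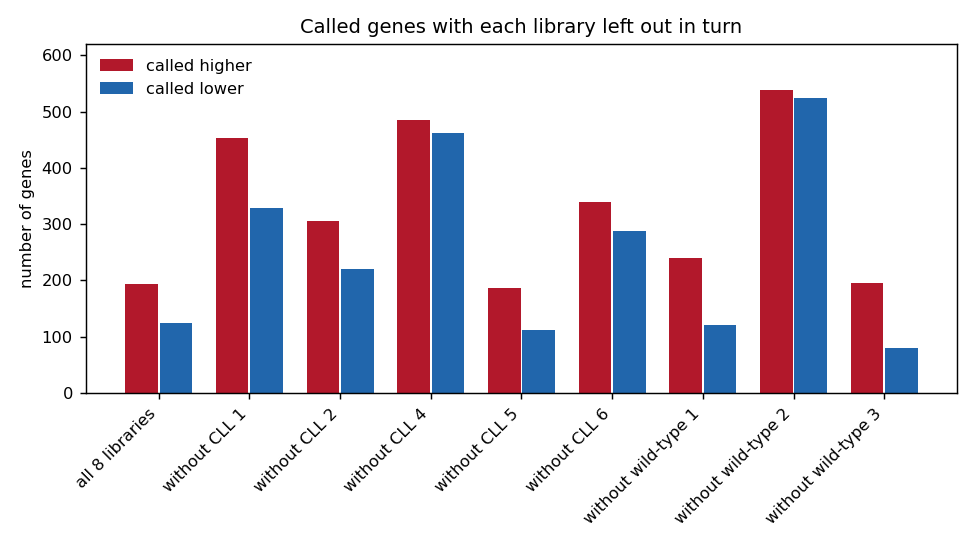
Number of genes of at least 20 TPM in either group called higher (red) and lower (blue) with all 8 libraries and with each library left out in turn. The counts of 193 and 124 with all libraries grew most without wild-type library 2, to 539 and 524.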

How the data were processed

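RNA-seq was analysed for 5 libraries of CLL cells and 3 of aged wild-type B cells, with 4 libraries of non-CLL B cells as reference levels. The authors deposited TPM values per gene, per the labels. The submitters' processing notes name STAR 2.4.0.1, Bowtie2 2.3.4.1, MACS2 2.2.0 and mm10 for the series, without saying which served which assay. Quantifier, annotation and strandedness: not given in the sources used here. Because TPM keeps no read numbers, depth is unknown and no counting interval is given; reads of antisense or overlapping genes cannot be told apart.

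Of 22806 rows, 25 whose names had become dates (0.302% to 0.525% of TPM) were left out. Genes with at least 1 TPM in at least 3 of the 8 libraries were compared as log2(TPM + 1) with limma 3.58.1 in R 4.3.3 (variance trend, robust, two-sided, no block), with Benjamini-Hochberg adjustment over 21202 genes and calls at an adjusted p under 0.05. Genes with a mean of at least 20 TPM in either group are reported. Folds are on the log2(TPM + 1) scale, which understates changes of low genes. Coordinates came from the RefSeq table of GRCm38.p6, which held 6382 of the 7023 symbols. The procedure was tested on simulated data.

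Genes were named by rule: Ikzf3, Cd5, Ptprc, and B cell markers such as Pax5 and Ms4a1; the 15 largest increases and 15 largest decreases among called genes whose groups did not overlap; and up to 4 called members of each of 35 lists. Some genes that the rule takes in are not reported here. The members and lists were chosen with earlier results of these data known. Alternatives were other pseudocounts, filters, reporting minima, scalings, background subtraction (the olfactory receptor median of each library), other variance models, all 12 aged libraries, a replicate block, and each library left out. The young libraries and chromatin assays were not used here. CLL and wild-type libraries share numbers 1 and 2, which name different mice. CLL and non-CLL libraries share numbers 2, 4, 5 and 6 with matching genotypes, and the fit of all 12 libraries did not model this.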

Additional observations from a re-analysis of the deposited data

Results flagged for a closer look

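Among the 70 named genes, 7 had a CLL library far from the other 4, by the gap to its neighbour relative to the range of the 5 values (above 0.71). This limit marks about 1 in 20 groups of normally distributed values. It was applied here to TPM without a log scale, whose distribution was not tested, so that rate cannot be set against the 7 genes. Of these, 3 concerned CLL library 1: Cd9 at 527 TPM, against 232 to 277 TPM in the other CLL libraries, Cd274 at 197 TPM against 58.2 to 98.2 TPM, and Atf4 at 399 TPM against 149 to 209 TPM. Snord110 stood at 55.2 TPM in CLL library 4, against 41.1 to 43.0 TPM in the others. Among genes that fell, Stat4 was at 11.8 TPM in CLL library 6 (1.3 to 4.25 TPM in the others), Tgtp2 at 57.6 TPM in CLL library 5 (6.64 to 15.2 TPM) and Fcgrt at 27 TPM in CLL library 2 (3.49 to 8.79 TPM). In each of the 7 cases the library that stood apart was the highest of the CLL libraries.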

How the results depend on the processing

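Beside 193 genes higher and 124 lower, a pseudocount of 0.1 gave 483 and 418, one of 10 gave 120 and 74, testing only genes with a mean of at least 20 TPM gave 68 and 39, quantile normalization 32 and 21, background subtraction 45 and 41, no variance trend without robust estimation 40 and 13, library weights 973 and 1171, and all 12 aged libraries 472 and 463. Reporting from 50 TPM left 105 higher. Leaving out each library gave 187 to 539 higher and 80 to 524 lower, and leaving out wild-type 2 and CLL 6 together, chosen after seeing the data, 449 and 505. No filter (161 and 88) and median-ratio rescaling (259 and 132) stayed within 1.5 times. With a replicate block, which ties together libraries of different mice that only share numbers 1 and 2, 2 and 0 were called by limma (306 and 235 at an unadjusted p under 0.05), and Ikzf3 (-0.16) and Pax5 (-0.15), neither called, changed sign. Ikzf3, between -0.086 (without wild-type 1) and 0.51 with each library left out, also turned without CLL 6 (-0.05). None of the 66 called named genes changed direction in any setting run. Of these, background subtraction kept the calls of 35, quantile normalization 25, a pseudocount of 10 45 and no filter 56, and the fit to genes of at least 20 TPM kept 28 of 59 with a value. The cause was not tested. Unknown depth limits precision for genes near the background.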
